A study of Saccharomyces cerevisiae with 12 samples.

Results

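The response of wild-type budding yeast to 10 min at 42 °C was read from ribosome footprints, the short mRNA fragments that translating ribosomes protect from nuclease. It rests on the 4 libraries labelled wild type (WT) at 30 and at 42 °C, of 12 in the series, and on the 5719 of 6697 genes that passed a filter on low counts. The cells were of the W303 Ade+ background and carried Ded1-mCherry, that is, the DEAD-box helicase Ded1 of translation initiation fused to a red fluorescent protein, so that the 30 °C controls had the tag as well. Growth was at 30 °C until the OD600 was 0.5, and portions of 200 ml were then held for 10 min at 30, 40 or 42 °C. There were 2 libraries per group, from duplicate pre-cultures. The WT libraries at 40 °C, and those of a second strain with Ded1_IDRm-mCherry, called IDRm in the labels, were used only to show where the WT response at 42 °C differed. Since the portions at the several temperatures came from the same cultures, p-values that treat the libraries as independent measure only the spread between these libraries.

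Heat unfolds proteins, and yeast answers within minutes. The heat shock factor Hsf1 raises the transcription of chaperones, which hold, refold or disentangle unfolded proteins, while the related zinc finger factors Msn2 and Msn4 raise a broad set of general stress genes for trehalose, glycogen and redox defence. At the same time growth genes, above all those for making ribosomes, are turned down, and at severe heat many proteins and mRNAs gather in condensates. Ded1 is among the proteins that condense on heating, and W303 is a common haploid laboratory background.

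The WT 30 °C libraries held 7851819 and 3429950 counts and the 42 °C libraries 5958521 and 3979334, within the range of all 12. Pearson correlations of log2 CPM (the count scaled to a common library total) between replicates were 0.9894 at 30 °C and 0.9924 at 42 °C. Genes that mark a-type haploid cells were read at 30 °C, with STE2, the alpha-factor receptor, at 299 CPM, while SAG1 and STE3 of alpha cells had 8.22 and 0.757 CPM. DED1 itself had 1381 and 1427 CPM at 30 °C and 1280.2 and 1457 CPM at 42 °C. The groups overlapped, and the log2 fold change of −0.04 ± 0.07 did not pass the test (edgeR, adjusted p = 0.648). The 30 °C replicates differed in heat genes. The lists of cytosolic chaperones also hold HSP30 and HSP12, proteins that act at membranes. Of their 22 genes that rose at least 2-fold, 17 had more CPM in replicate 2 than in replicate 1 at 30 °C. The median ratio was 1.467, and the highest, 8.626, was that of HSP30. Over all genes read in both replicates the count was 2476 of 5678, with a median ratio of 0.9764. Among those called at least 2-fold higher it was 491 of 799, with a median ratio of 1.112. At 42 °C the 22 genes of the chaperone lists had a median ratio of 0.9928. For genes named below, where leaving out a 30 °C library moved the fold change by over 1.5 times, the value without that library is given. What set these libraries apart was not tested.

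Against 30 °C, 30.0% of the tested genes (1716) were called higher and 33.6% (1919) lower at 42 °C, where a call means an adjusted p of at most 0.05 in edgeR's quasi-likelihood test. A change of at least 2-fold was called higher for 14.6% of the genes and lower for 8.66%. In 78.6% of the genes the 2 libraries of one temperature lay wholly above those of the other, called or not. The median gene changed by −0.03 on the log2 scale. Counts of list members are read against 30.0% higher and 33.6% lower. Where a list is near both, as for glycolysis or DNA repair, its count is not a result about that list. Mitochondrial chaperones had 29.4% higher and 23.5% lower, ubiquitin genes 40.6% and 34.4%, and nutrient factors 38% and 40%. These are further off, and their counts are not read as results either. Changes below are log2 fold changes of 42 against 30 °C ± an approximate standard error, each from 2 libraries against 2. Levels are relative within a library, and total RNA of the same cells was not analysed here, so a change in mRNA amount and a change in ribosomes per mRNA cannot be told apart, nor can a change in all cells and a change in some.

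**Figure D1:**
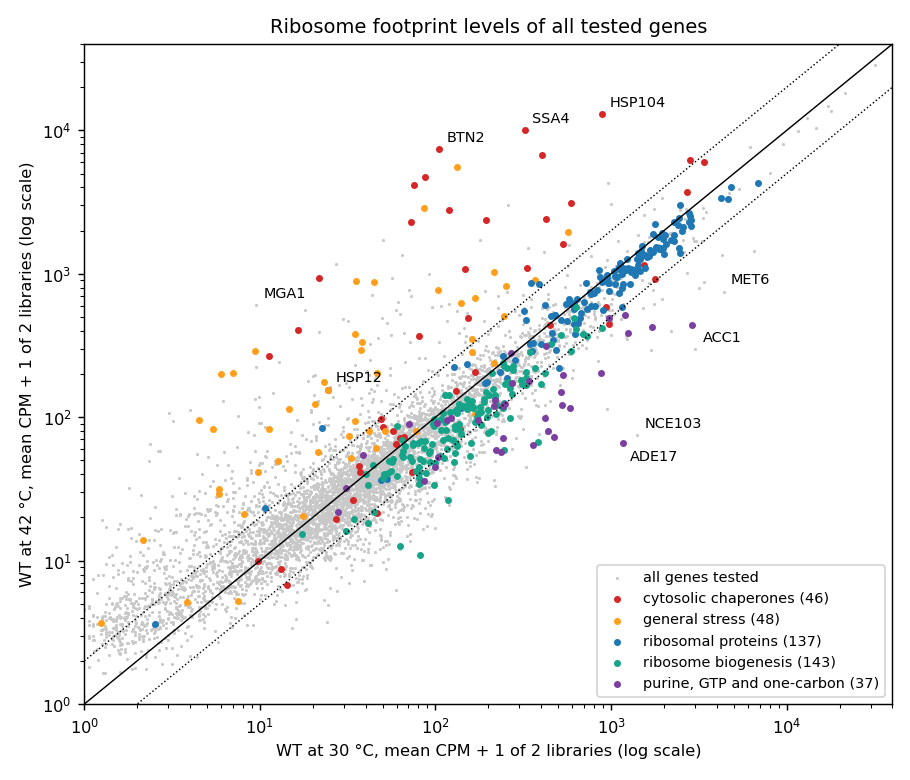
Mean CPM + 1 of the 2 WT libraries at 42 °C (vertical log axis) against that at 30 °C (horizontal log axis) for the tested genes, each point a gene. Coloured points are genes of 5 groups, the solid line marks equal levels and the dotted lines a 2-fold difference. HSP104, SSA4 and BTN2 stand far above the line, ADE17, NCE103 and ACC1 far below it, and the ribosomal proteins close to it.

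The list of the disaggregase Hsp104, small heat shock proteins and sequestrases that gather misfolded proteins rose without exception, in 8 of 8 genes. It also holds HSP30, HSP31 and HSP12, the last described below with the general stress genes, and its median log2 fold change was 5.01. HSP104, whose product pulls single chains out of aggregates, had 705 and 1069 CPM at 30 °C and 12907 and 12890.0 CPM at 42 °C. Both hot libraries were far above both controls, a 14.6-fold rise of 3.87 ± 0.22 on the log2 scale (edgeR, adjusted p = 4.04e-06). BTN2, a sequestrase that collects misfolded proteins at the nucleus, had 27.7 and 179.6 CPM at 30 °C and 7860.1 and 6894 CPM at 42 °C. The controls differed widely from each other, yet each stayed far below the hot libraries. The change of BTN2 was 6.28 ± 0.80 (edgeR, adjusted p = 0.000451), or 5.36 without replicate 1 and 8.04 without replicate 2 at 30 °C. The small heat shock protein HSP42, which forms cytosolic deposits, had 31.5 and 117 CPM at 30 °C and 3940.3 and 4389.9 CPM at 42 °C. HSP26, another small heat shock protein and a temperature-switched holdase, had 27.7 and 115 CPM at 30 °C and 2395 and 2181 CPM at 42 °C. In neither gene did the groups come near each other. Their changes were 5.94 ± 0.56 and 5.15 ± 0.58, or 5.16 and 4.31 without replicate 1 and 7.04 and 6.36 without replicate 2 at 30 °C. CUR1, the paralog of BTN2, rose by 4.88 ± 0.22, or 4.23 without replicate 1 at 30 °C. HSP30, a membrane protein that restrains the proton pump, had 18.0 and 155 CPM at 30 °C and 4774 and 4627 CPM at 42 °C and changed by 5.92 ± 0.86, or by 4.92 and 8.02 without replicate 1 and 2 at 30 °C. HSP31, a glyoxalase-like chaperone, rose least, by 1.02 ± 0.10. In a fit of the 4 libraries alone BTN2, HSP30 and HSP26 were no longer called (edgeR, adjusted p = 0.0676, 0.0865 and 0.0532), which left 5 of the 8 genes.

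Stretches upstream of BTN2 and HSP104 are shown as examples that hold the binding motif of the heat shock factor, which not all of these genes have. The windows below run from 400 to 101 bases before the start codon in the R64 reference, on the plus strand at chrVII:772054-772353 and chrXII:88223-88522. Capitals mark the heat shock element, the binding motif of Hsf1, searched as GAANNTTCNNGAA or TTCNNGAANNTTC, and in HSP104 also the stress response element AGGGG or CCCCT of Msn2 and Msn4. The letters cover both strands, and matches may overlap.
BTN2: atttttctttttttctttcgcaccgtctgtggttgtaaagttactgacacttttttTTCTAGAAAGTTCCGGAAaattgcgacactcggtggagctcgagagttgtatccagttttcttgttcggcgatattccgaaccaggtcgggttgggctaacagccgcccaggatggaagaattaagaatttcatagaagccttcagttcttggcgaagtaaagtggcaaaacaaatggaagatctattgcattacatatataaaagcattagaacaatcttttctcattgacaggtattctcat
HSP104: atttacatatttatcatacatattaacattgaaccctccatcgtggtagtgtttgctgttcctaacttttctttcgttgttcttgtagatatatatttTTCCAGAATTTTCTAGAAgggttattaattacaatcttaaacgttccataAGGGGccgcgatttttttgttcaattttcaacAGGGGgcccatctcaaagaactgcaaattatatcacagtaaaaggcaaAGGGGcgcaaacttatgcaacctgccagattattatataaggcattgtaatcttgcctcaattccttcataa
Both windows hold 2 matches to the heat shock element, which overlap in a single run of capitals. That of HSP104 also holds 3 stress response elements. Of 5590 windows read in the same way, 1.13% held a heat shock element. The share was 21.7% among 46 genes in the cytosolic chaperone lists and 40.9% among the 22 of them that rose at least 2-fold. It was 3.58% among all 754 genes that rose at least 2-fold and 1.21% among the 494 that fell at least 2-fold. HSP26, HSP30, SSA4 and APJ1 had no match to these letters in this window. These genes were picked for display after their values were seen, and a match is a description of letters, not of binding.

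The cytosolic Hsp70s split by kind, with 6 higher and 3 lower of 9, the latter 33.3% and near the 33.6% of all genes. With genes of shared sequence left out 1 was lower, and SSA1 and SSA2 were dropped from the higher. SSA4, the heat-inducible Hsp70, had 158 and 484 CPM at 30 °C and 9878 and 10121 CPM at 42 °C, with both hot libraries far above both controls. Its change was 4.99 ± 0.57, or 4.37 without replicate 1 and 5.98 without replicate 2 at 30 °C, and that of the stress Hsp70 SSA3 was 4.88 ± 0.23, or 4.20 without replicate 1. The always-present forms SSA1 and SSA2 rose by 2.51 ± 0.07 and 1.14 ± 0.07, though 64.7% and 65.0% of their 28-base words occur in another gene, so reads may have been divided between copies. The Hsp110 exchange factors SSE2 and SSE1 rose by 2.20 ± 0.09 and 0.45 ± 0.07. In contrast, the ribosome-bound Hsp70s that meet nascent chains fell. SSZ1, a subunit of the ribosome-associated complex, went from 994 and 941 CPM to 445 and 449 CPM with no overlap, −1.12 ± 0.06. SSB1 and SSB2, with 60.6% and 60.9% of these words in another gene, changed by −0.43 ± 0.06 and −0.94 ± 0.07.

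Several partners of Hsp70 and Hsp90 rose with the inducible forms. APJ1, an Hsp40 that feeds aggregates to Hsp70, had 12.6 and 28.7 CPM at 30 °C and 916 and 948 CPM at 42 °C. Its hot libraries were far above both controls, 5.67 ± 0.25, or 5.02 without replicate 1 at 30 °C. FES1, the nucleotide exchange factor that releases misfolded substrates, rose from 93.0 and 144 to 2805 and 2760.3 CPM. SIS1, the Hsp40 that also restrains Hsf1 activity, rose by 3.64 ± 0.10 and YDJ1, a general Hsp40, by 1.59 ± 0.07, while XDJ1 fell by 1.13. In all, 7 of 15 Hsp40s and exchange factors were higher and 5 lower, the latter 33.3% and near the share of all genes. Of 14 Hsp90s and co-chaperones 8 were higher and 3 lower, or 1 lower without replicate 1 at 30 °C. HSP82, the inducible Hsp90, had 333 and 472 CPM at 30 °C and 6765 and 6671 CPM at 42 °C, a clear separation of 4.07 ± 0.19, against 0.83 ± 0.07 for HSC82, its steadily expressed twin. The Hsp90 activators AHA1 and HCH1 rose by 2.87 ± 0.08 and 1.68 ± 0.07, the Hsp70 to Hsp90 adaptor STI1 by 2.41 ± 0.07 and the cyclophilin CPR6 by 1.72 ± 0.07. The chaperonin TRiC, which folds actin and tubulin, and prefoldin, which delivers them, went the other way in 8 of 14 genes. CCT5, a TRiC subunit, had 369.9 and 378 CPM at 30 °C and 122 and 120.1 CPM at 42 °C, −1.63 ± 0.08 with no overlap, and CCT8 fell by 1.01. GIM4 of prefoldin and 1 other member were higher, or 1 in all without replicate 2 at 42 °C.

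**Figure D2:**
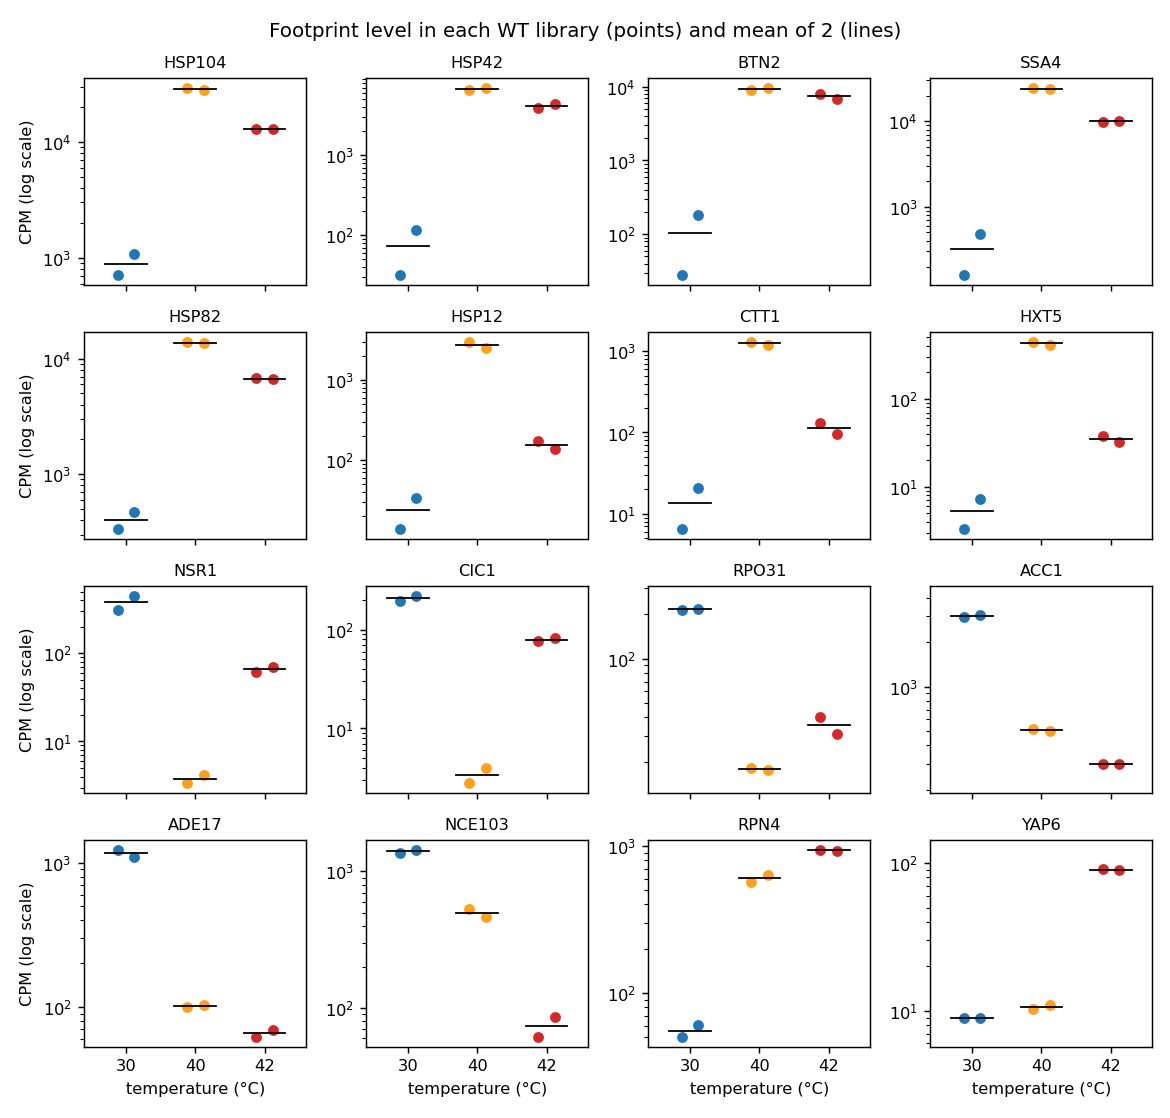
CPM (log axis, scaled per panel) of 16 genes in each WT library at 30, 40 and 42 °C. Points are libraries and lines the mean of 2. Heat genes such as HSP104 and HSP12 stand higher at 42 than at 30 °C but lower than at 40 °C, the biogenesis genes NSR1 and CIC1 stand higher at 42 than at 40 °C, and YAP6 has 91.5 and 89.6 CPM at 42 °C but 10.3 and 10.9 CPM at 40 °C.

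Compartment chaperones moved in part. In the endoplasmic reticulum (ER) 8 of 19 folding genes were higher and 5 lower, or 3 lower without replicate 1 at 42 °C. HAC1, the transcription factor of the unfolded protein response, whose mRNA is held silent until Ire1 splices it, had 29.9 and 54.9 CPM at 30 °C and 649.6 and 780.2 CPM at 42 °C. Both hot libraries were far above both controls, 4.18 ± 0.24. KAR2, the lumenal Hsp70, had 907 and 1012 CPM at 30 °C and 4299 and 4236 CPM at 42 °C, and the oxidase ERO1 and the disulfide isomerase MPD1 rose by 2.08 ± 0.09 and 2.04 ± 0.10. EPS1, another isomerase of the same family, fell from 73.7 and 74.9 to 19.5 and 18.2 CPM, −1.97 ± 0.12. In mitochondria HSP78, the matrix disaggregase, had 68.8 and 196 CPM at 30 °C and 5667 and 5466 CPM at 42 °C. The controls differed from each other but not enough to approach the heated cells, and the change was 5.46 ± 0.50, or 4.83 and 6.33 without replicate 1 and 2 at 30 °C. The Hsp40 MDJ1 rose by 3.34 ± 0.13 and the chaperonin pair HSP60 and HSP10 by 1.62 ± 0.07 and 1.55 ± 0.07. YTA12, a subunit of the inner membrane protease, fell by 1.94. Of these 17 mitochondrial genes 5 were higher, or 8 by library size alone, and 4 lower.

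In protein degradation the regulator of proteasome genes rose far more than the proteasome genes themselves. RPN4, the short-lived transcription factor of proteasome genes, had 49.9 and 60.8 CPM at 30 °C and 940.4 and 927 CPM at 42 °C, a 17.2-fold rise with no overlap. The 37 proteasome genes had a median of −0.06, with 6 higher and 13 lower, the latter 35.1% and near the 33.6% of all genes. RPN4 was counted among those higher. The count was 3 higher without replicate 2 at 30 °C and 8 lower without replicate 1 at 42 °C. PRE2, a catalytic subunit, rose by 0.42 ± 0.08, while the ubiquitin receptor RPN10 fell by 0.42 and the proteasome activator BLM10 by 1.05. The Rpn4 element GGTGGCAAA or TTTGCCACC was found in the windows of 59.5% of these 37 genes and in 1.22% of all windows. In the ubiquitin system 13 of 32 genes were higher and 11 lower. ROQ1, a small protein that redirects the ubiquitin ligase Ubr1 to misfolded proteins, rose by 5.32 ± 0.20, or 4.60 without replicate 1 at 30 °C, while UBR1 fell by 1.62. UBI4, the polyubiquitin gene, had 412 and 412 CPM at 30 °C and 1415 and 1423 CPM at 42 °C. The ligase RSP5, which sorts membrane and heat-damaged proteins, had 177 and 166 CPM at 30 °C and 36.5 and 32.0 CPM at 42 °C, a fall of 2.32 with no overlap.

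Among regulators of stress transcription, 19 of 27 genes were higher and 6 lower, with a median of 0.80. MGA1, which resembles heat shock factors, had 4.38 and 12.7 CPM at 30 °C and 578 and 630.2 CPM at 42 °C. The lowest hot library was far above the highest control, 6.40 ± 0.26, or 5.56 and 7.09 without replicate 1 and 2 at 30 °C. NRG1 and NRG2, repressors linked to glucose and stress, rose by 4.72 ± 0.12 and 3.33 ± 0.14. YAP6, a bZIP factor, had 8.88 and 8.92 CPM at 30 °C and 91.5 and 89.6 CPM at 42 °C, with each pair of libraries close together, 3.35 ± 0.14. The factors MSN2, MSN4 and HSF1 were not called higher. MSN2 fell from 83.7 and 71.7 to 32.7 and 34.8 CPM, −1.23 ± 0.11. MSN4 at 0.07 ± 0.11 and HSF1 at −0.21 ± 0.13 did not pass the test (edgeR, adjusted p = 0.55 and 0.141), though HSF1 was called lower without replicate 1 at 42 °C (edgeR, −0.38, adjusted p = 0.0434).

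Of 48 general stress genes of the Msn2 and Msn4 type 42 rose and 2 fell, or 1 without replicate 1 at 30 or at 42 °C, and their median was 2.27. TSL1, a regulatory subunit of trehalose synthase, had 55.8 and 115 CPM at 30 °C and 2811 and 2952 CPM at 42 °C, far apart at 5.15 ± 0.33. SOL4, a 6-phosphogluconolactonase paralog, and PHM7, a membrane protein, rose by 5.48 ± 0.23 and 5.29 ± 0.20, or 4.86 and 4.59 without replicate 1 at 30 °C. HSP12, a small protein that stabilises membranes, had 13.6 and 33.5 CPM at 30 °C and 174 and 136 CPM at 42 °C. Its groups did not overlap, and the rise of 2.90 ± 0.40 became 2.22 without replicate 1 and 3.51 without replicate 2 at 30 °C. CTT1, the cytosolic catalase, had 6.44 and 20.8 CPM at 30 °C and 129 and 96.6 CPM at 42 °C, and its rise was 3.33 ± 0.44, or 2.45 and 4.13 without replicate 1 and 2.

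HSP12 and CTT1 are shown because they rose at 42 °C but stood far lower there than at 40 °C. Their windows, at chrVI:106856-107155 and chrVII:654234-654533 on the plus strand, have the stress response element in capitals.
HSP12: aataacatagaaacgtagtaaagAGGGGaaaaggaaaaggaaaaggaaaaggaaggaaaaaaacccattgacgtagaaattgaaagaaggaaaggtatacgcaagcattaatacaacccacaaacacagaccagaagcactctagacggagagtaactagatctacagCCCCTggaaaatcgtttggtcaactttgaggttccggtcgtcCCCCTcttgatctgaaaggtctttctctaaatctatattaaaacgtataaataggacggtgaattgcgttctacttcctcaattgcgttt
CTT1: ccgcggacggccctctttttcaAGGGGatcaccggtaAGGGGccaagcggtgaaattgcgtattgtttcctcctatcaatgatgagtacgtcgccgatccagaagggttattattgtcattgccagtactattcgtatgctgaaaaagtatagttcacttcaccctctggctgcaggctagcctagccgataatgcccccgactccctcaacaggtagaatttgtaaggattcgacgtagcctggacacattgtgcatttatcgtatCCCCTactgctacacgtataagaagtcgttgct
Each holds 3 matches. The element was in 23.9% of all windows and in 85.4% of those of the 48 general stress genes. That list was written from general knowledge of the Msn2 and Msn4 type, so its share only describes the list. The element was in 38.6% of the windows of genes that rose at least 2-fold and 18.4% of those that fell at least 2-fold. Among the risers it was in 57.2% of 311 genes that were lower at 42 than at 40 °C, and in 25.8% of 128 that were higher at 42 than at 40 °C.

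Of 20 trehalose and glycogen genes 14 rose and 2 fell, or 1 without replicate 1 at 30 °C. TPS2, the phosphatase of trehalose synthesis, had 214 and 213 CPM at 30 °C and 1070.0 and 977 CPM at 42 °C. PGM2, phosphoglucomutase, rose from 25.3 and 48.9 to 383 and 289 CPM, and GAC1, which targets a phosphatase to glycogen synthase, rose by 4.52 ± 0.20, or 3.60 and 5.29 without replicate 1 and 2 at 30 °C. Of 31 antioxidant genes 11 were higher and 6 lower, where 35.5% higher is near the 30.0% of all genes. SRX1, sulfiredoxin, rose by 2.14 ± 0.44, whereas both steps of glutathione synthesis fell. GSH1, the first enzyme, had 112 and 124 CPM at 30 °C and 26.6 and 20.1 CPM at 42 °C, −2.30 ± 0.12, and GSH2 fell by 2.05. GRX4, a glutaredoxin of iron signalling, fell by 1.79.

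Of 28 glycolysis and fermentation genes 9 were higher and 11 lower, shares of 32.1% and 39.3% that are near those of all genes. HXK1, the hexokinase of poor carbon sources, had 152 and 124 CPM at 30 °C and 659.8 and 581 CPM at 42 °C, 2.15 ± 0.16. The minor pyruvate kinase PYK2 rose by 1.10 ± 0.11, while CDC19, the major form, went from 8036 and 8057 to 4839 and 5204 CPM, −0.68 ± 0.07. PGK1, phosphoglycerate kinase, had 6090.3 and 6218 CPM at 30 °C and 7326 and 8024 CPM at 42 °C, a small rise of 0.32 ± 0.07. GPD1, the stress-responsive glycerol phosphate dehydrogenase, rose by 0.97 ± 0.11. In the pentose phosphate pathway SOL4, NQM1, TKL2 and GND2, each known as a minor paralog, rose by 5.48 ± 0.23, 2.33 ± 0.21, 2.20 ± 0.26 and 1.57 ± 0.20. TKL1, the main transketolase, had 1766 and 1737 CPM at 30 °C and 602 and 624 CPM at 42 °C, a fall of 1.52. Without replicate 1 at 30 °C the rise of TKL2 was 1.59. The hexose transporters and sensors had 5 higher and 10 lower of 23. HXT5, the transporter of slow growth, had 3.28 and 7.30 CPM at 30 °C and 38.1 and 32.7 CPM at 42 °C, which placed both hot libraries well above both controls, 2.96 ± 0.21 or 2.29 without replicate 1 at 30 °C. MIG2, a glucose repressor, went from 61.9 and 54.9 to 5.62 and 4.90 CPM, and its relative MIG1 fell by 1.47.

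In the citric acid cycle and its side reactions 10 of 35 genes were higher, or 5 without replicate 1 at 42 °C, and 14 lower. The shares of this list, 28.6% higher and 40% lower, are near those of all genes. PYC1, pyruvate carboxylase, which refills the cycle, had 999 and 893 CPM at 30 °C and 112 and 114 CPM at 42 °C. The groups were far apart, a 8.38-fold fall, and its paralog PYC2 fell by 1.68. MLS1, malate synthase, and FBP1 of gluconeogenesis rose by 2.54 ± 0.32 and 2.09 ± 0.42. Nuclear genes of oxidative phosphorylation had 9 higher and 10 lower of 37, or 5 lower without replicate 1 at 30 °C. Their shares were 24.3% higher and 27% lower, not far from those of all genes. QCR8, a subunit of complex III, had 81.8 and 77.9 CPM at 30 °C and 268 and 245 CPM at 42 °C. ATP1, the alpha subunit of ATP synthase, had 558 and 501 CPM at 30 °C and 208 and 232 CPM at 42 °C. These moved in opposite directions, 1.68 ± 0.08 and −1.28 ± 0.08. Genes encoded in mitochondrial DNA and read by mitochondrial ribosomes rose in 5 of 8 cases, or 3 with genes of shared sequence left out, and fell in 0. COX2, of cytochrome oxidase, had 14.2 and 20.3 CPM at 30 °C and 80.1 and 57.8 CPM at 42 °C, 2.10 ± 0.17, and overlaps another annotated reading frame. ATP6 had 6.44 and 8.38 CPM at 30 °C and 43.5 and 22.4 CPM at 42 °C, with the hot libraries apart from each other but both above the controls, 2.28 ± 0.31 or 1.66 without replicate 1 at 42 °C. ATP8 rose by 1.79 ± 0.49 but was not called without replicate 1 at 30 or at 42 °C (edgeR, 1.59 and 0.97, adjusted p = 0.0553 and 0.245). With 1.09 and 1.35 CPM at 30 °C, ATP8 could pass the low-count filter through heated libraries alone, which favours a rise. COX1 at 1.12 ± 0.16 and COB at 1.60 ± 0.19 hold introns with reading frames of their own and share sequence with them. OLI1, VAR1 and COX3 had 0.53, 0.18 and 0.10 and were not called (edgeR, adjusted p = 0.0547, 0.62 and 0.662). Without replicate 2 at 42 °C OLI1 and VAR1 were called higher, and VAR1 was at −0.79 without replicate 1.

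In lipid synthesis the entry enzymes fell. ACC1, acetyl-CoA carboxylase, which makes the malonyl-CoA for fatty acids, had 2971 and 3067 CPM at 30 °C and 297 and 300.4 CPM at 42 °C, 10.1-fold lower with the libraries of each temperature close together. The fatty acid synthase chains FAS1 and FAS2 fell by 1.93 and 1.98, the latter from 3047 and 3262 to 827 and 771 CPM. INO1, inositol phosphate synthase, fell by 2.34 and PSD1, which makes phosphatidylethanolamine in mitochondria, by 1.90. In all 20 of 35 genes were lower and 5 higher. Sterol synthesis had 8 higher and 10 lower of 23, 34.8% and 43.5%, not far from the shares of all genes. ERG13, MVD1 and ERG20 of the mevalonate branch fell by 1.77, 1.37 and 1.26, whereas ERG3, a late desaturase, had 299 and 339 CPM at 30 °C and 555 and 601 CPM at 42 °C and rose by 0.86 ± 0.08.

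De novo purine synthesis, with guanine nucleotide and one-carbon synthesis, had the lowest medians of the 61 lists, −1.56 and −0.97. Of 16 de novo purine genes 14 fell and 1 rose, or 0 rose without replicate 2 at 42 °C. ADE17, which closes the purine ring, had 1226 and 1101 CPM at 30 °C and 61.5 and 69.7 CPM at 42 °C. The hot libraries were far below the controls, a 17.9-fold fall. ADE4, the committed step, fell by 2.33, and ADE1 and ADE13 by 2.12 and 2.12. Guanine nucleotide and one-carbon genes were lower in 18 of 21 cases and higher in 1. SHM2, the cytosolic serine hydroxymethyltransferase that supplies one-carbon units, had 3039 and 2742 CPM at 30 °C and 399 and 474 CPM at 42 °C, and its mitochondrial form SHM1 fell by 2.08. GCV2, glycine decarboxylase, fell by 2.72, IMD4, which begins guanine nucleotide synthesis, by 2.45 and the salvage enzyme HPT1 by 2.52. Pyrimidine genes had 4 higher and 11 lower of 19. URA2, the first enzyme of that pathway, fell from 1772 and 1622 to 297 and 290.4 CPM, while RNR3, a ribonucleotide reductase subunit known from DNA damage, rose by 2.33 ± 0.16.

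Amino acid synthesis genes were lower in 47 of 61 cases and higher in 4, or 2 without replicate 1 at 42 °C, with a median of −0.42. SER3, the first step of serine synthesis, had 273 and 269 CPM at 30 °C and 54.4 and 64.4 CPM at 42 °C, with the groups far apart and a fall of 2.20. CPA1, of arginine synthesis, whose mRNA carries an upstream reading frame, changed by −2.74 ± 0.14. Sulfur and methionine genes had 2 higher and 22 lower of 30, with MET6, methionine synthase, at 4467 and 4277 CPM at 30 °C and 692 and 811 CPM at 42 °C. SAM1, which makes S-adenosylmethionine, fell by 1.83, while the low-affinity methionine permease MUP3 rose by 1.87 ± 0.20. Permeases for amino acids and ammonium had 9 higher and 8 lower of 23, 39.1% and 34.8%, of which the latter is near the share of all genes. PUT4, the proline permease, had 11.3 and 10.5 CPM at 30 °C and 139 and 154 CPM at 42 °C, and MEP1, for ammonium, rose by 2.77 ± 0.10. TAT2, for tryptophan, had 91.7 and 105 CPM at 30 °C and 16.3 and 15.6 CPM at 42 °C, the opposite direction at −2.60 ± 0.12.

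In the translation machinery the ribosomal proteins had a small median change, and several initiation factors fell further. Cytosolic ribosomal proteins were lower in 75 of 137 cases and higher in 15, with a median of −0.18, and in 48 and 8 with genes of shared sequence left out. RPL36B, the minor paralog of a large subunit protein, had 17.8 and 25.7 CPM at 30 °C and 84.0 and 82.6 CPM at 42 °C and rose by 2.02 ± 0.13, and RPL22A rose by 1.23 ± 0.19. RPS9A had 539 and 470.2 CPM at 30 °C and 220.0 and 219 CPM at 42 °C, a fall of 1.20. For mitochondrial ribosomal proteins 24 of 71 were lower and 10 higher, or 14 lower without replicate 1 at 30 °C. The share of mitochondrial ribosomal proteins called lower, 33.8%, is near the 33.6% of all genes. Of the 11 genes around the cap-binding complex 5 were lower and 3 higher, or 1 higher with genes of shared sequence left out. PAB1, the poly(A)-binding protein, had 1728 and 1733 CPM at 30 °C and 768 and 775 CPM at 42 °C. The scaffold eIF4G, encoded by TIF4631 and TIF4632, fell too, TIF4631 from 725 and 729.9 to 345 and 339.6 CPM and TIF4632 by 1.43. CDC33, the cap-binding eIF4E, fell by 0.44 and TIF3, eIF4B, by 0.74. The helicase eIF4A copies TIF1 and TIF2, alike in 90.9% of their 28-base words, had 0.53 ± 0.08 and 0.29 ± 0.08, the latter not called without replicate 2 at 30 °C (edgeR, 0.20, adjusted p = 0.058). CAF20, which blocks eIF4E, rose by 0.56 ± 0.09. DBP1, the paralog of DED1, had 0.19 ± 0.21 and EAP1 −0.07 ± 0.09, and neither passed the test (edgeR, adjusted p = 0.43 and 0.528).

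The scanning factors eIF1, eIF1A, eIF3, eIF5 and eIF5B had 8 lower and 1 higher of 10. RPG1, the largest eIF3 subunit, had 1011 and 983 CPM at 30 °C and 479 and 457 CPM at 42 °C, and NIP1, TIF5 and FUN12 fell by 0.71, 0.73 and 0.46. The higher gene was TIF11, eIF1A, at 0.24 ± 0.07, a call that ended without replicate 2 at 30 °C or replicate 1 at 42 °C (edgeR, adjusted p = 0.0624 and 0.0832). PRT1 and TIF35, at −0.21 ± 0.07 and −0.22 ± 0.07, were not called in a fit of the 4 libraries alone (edgeR, adjusted p = 0.106 and 0.081). HCR1 and TIF34 fell by 0.70 and 0.28, and SUI1, eIF1, was at 0.05 ± 0.07 and not called (edgeR, adjusted p = 0.489). In eIF2, its exchange factor and the GCN pathway 11 of 16 were lower and 0 higher, such as GCD11 at −0.70 ± 0.07. GCN4, the amino acid starvation factor whose upstream reading frames report low eIF2 activity, had 61.4 and 70.8 CPM at 30 °C and 65.9 and 59.9 CPM at 42 °C. The groups overlapped, and the change of −0.04 ± 0.10 did not pass (edgeR, adjusted p = 0.726). Elongation and termination factors had 4 higher, or 1 with genes of shared sequence left out, and 8 lower of 16, with EFB1, the exchange factor of eEF1A, at 3368 and 3215 CPM at 30 °C and 1625 and 1743 CPM at 42 °C and the release factors SUP35 and SUP45 lower by 0.94 and 0.66. Cytosolic tRNA synthetases were lower in 14 of 21 cases and higher in 0, or 1 without replicate 2 at 42 °C. CDC60, for leucine, had 1262 and 1177 CPM at 30 °C and 388 and 350.1 CPM at 42 °C, and ALA1, for alanine, fell by 1.41.

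Ribosome biogenesis was lower at 42 °C, though its 2 lists, which had the lowest medians of the 61 lists at 40 °C, did not have the lowest here. Of 66 genes for the small subunit and its 90S precursor 54 were lower and 2 higher, or 0 higher without replicate 1 at 30 °C, with a median of −0.60. Of 77 genes for the large subunit 61 were lower and 1 higher, with a median of −0.59. NSR1, a nucleolar protein of pre-rRNA processing, had 309.8 and 450.2 CPM at 30 °C and 61.9 and 70.0 CPM at 42 °C, −2.52 ± 0.23. CIC1, a 60S assembly factor, had 194 and 219 CPM at 30 °C and 76.3 and 81.4 CPM at 42 °C, and each pair was close together, −1.38 ± 0.10. ALB1, which travels with the pre-60S particle, fell from 74.4 and 86.3 to 10.1 and 9.80 CPM. SOF1 and UTP22 of the small subunit processome fell by 2.17 and 2.06 and the 60S assembly factor LSG1 by 1.56. RNA polymerases I and III, which transcribe rRNA and tRNA, had 20 lower and 3 higher of 34, or 1 higher without replicate 1 at 30 °C or without either replicate at 42 °C. RPO31, the largest subunit of polymerase III, had 215 and 217 CPM at 30 °C and 40.1 and 30.8 CPM at 42 °C, −2.58 ± 0.11, and RPA190 and RPA43 of polymerase I fell by 1.09 and 1.16.

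The window of CIC1, at chrVIII:210448-210747 on the plus strand, is shown for the motifs of biogenesis promoters. Capitals mark the PAC element, GCGATGAG or CTCATCGC, and the RRPE element, AAAAATTTT or AAAATTTTT, whose 2 matches overlap.
CIC1: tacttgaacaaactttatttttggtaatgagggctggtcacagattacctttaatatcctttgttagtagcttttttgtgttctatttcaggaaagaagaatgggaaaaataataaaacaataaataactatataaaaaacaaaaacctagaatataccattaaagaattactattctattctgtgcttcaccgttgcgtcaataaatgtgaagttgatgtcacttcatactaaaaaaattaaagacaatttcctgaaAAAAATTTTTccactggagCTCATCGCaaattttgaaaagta
Of 143 biogenesis windows 33.6% held a PAC element and 62.2% an RRPE element, where all windows had 3.65% and 7.66%. At 42 °C the 204 genes with a PAC element had a median of −0.29 and the 428 with an RRPE element one of −0.31, and at 40 °C the same genes had −1.04 and −0.98.

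**Figure D3:**
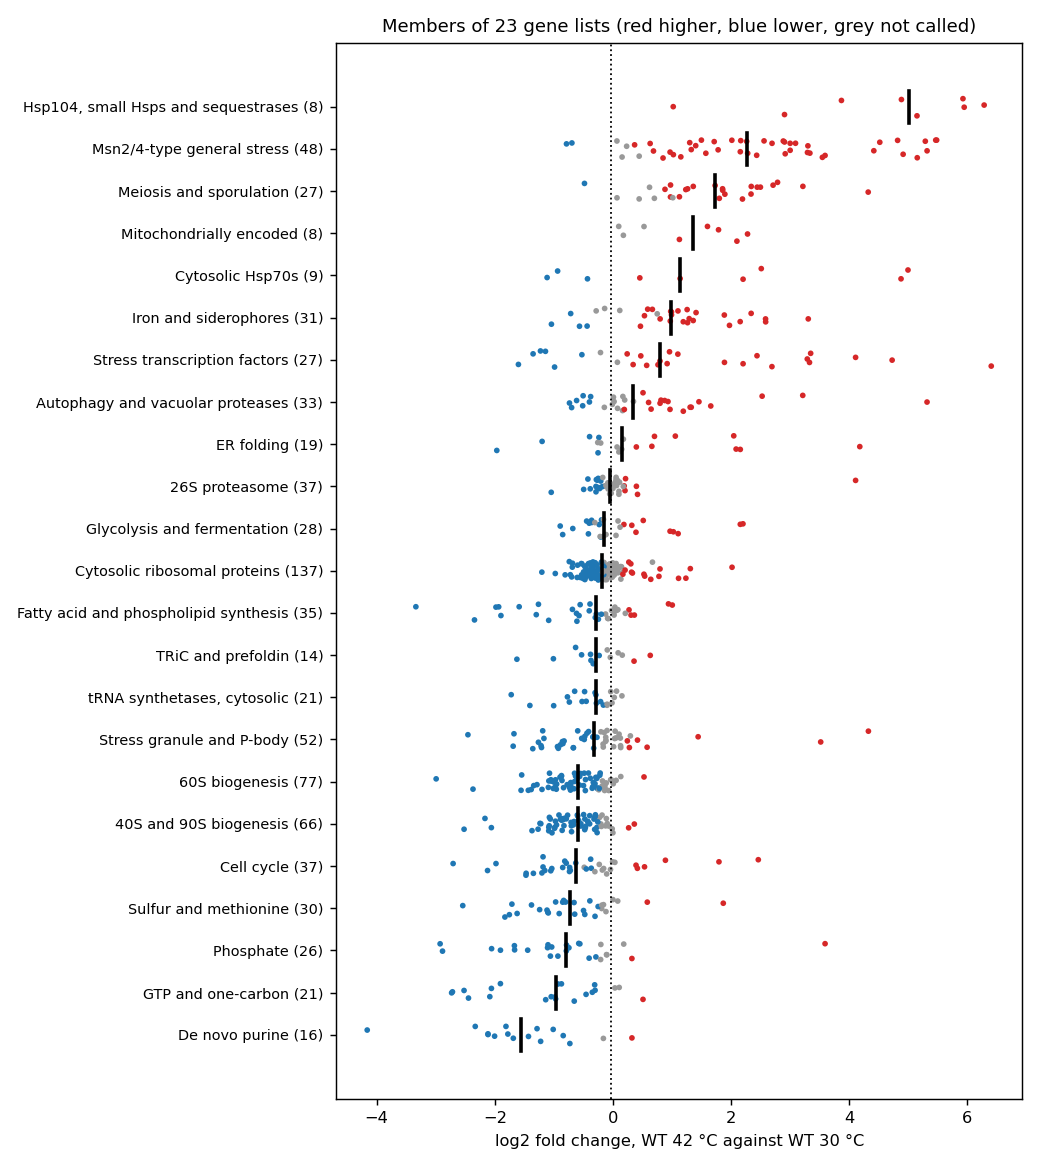
Log2 fold change of 42 against 30 °C in WT for each tested member of 23 gene lists, the number tested in brackets. Red points were called higher, blue lower and grey not called, black bars are list medians and the dotted line is the median of all genes. The medians run from 5.01 for the list of Hsp104, small heat shock proteins and sequestrases to −1.56 for de novo purine synthesis.

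Genes of mRNA decay, transcription and export were more often lower than higher, with some sharp rises. Of 52 granule and P-body genes 28 were lower and 7 higher. XRN1, the main cytoplasmic exonuclease, had 440.0 and 405 CPM at 30 °C and 78.2 and 76.0 CPM at 42 °C, −2.46 ± 0.09, and LSM1 of the decapping activator fell by 1.68. EDC2, an enhancer of decapping, had 16.9 and 24.6 CPM at 30 °C and 345 and 445 CPM at 42 °C, 4.32 ± 0.14, and RIE1, an RNA-binding protein, rose by 3.52 ± 0.17. RNA polymerase II and Mediator had 22 lower and 9 higher of 44. RPO21, the largest subunit, had 549 and 484 CPM at 30 °C and 125 and 115 CPM at 42 °C, and RPB2 and RPB7 fell by 1.80 and 2.19. The Mediator subunits CSE2 and ROX3 rose by 1.86 ± 0.14 and 1.65 ± 0.11. Nuclear transport had 11 lower and 5 higher of 25. PSE1, an importin for ribosomal proteins among others, had 290.4 and 280.4 CPM at 30 °C and 75.4 and 65.8 CPM at 42 °C, and the mRNA export factors YRA1 and MEX67 fell by 1.53 and 1.49. Splicing genes had 7 higher and 11 lower of 41, and the 7 became 2 without replicate 1 at 30 or 42 °C and 4 without replicate 2 at 42 °C.

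In the secretory pathway ER translocation and glycosylation had 20 lower and 3 higher of 44, or 7 higher by library size alone, and coat and traffic genes 13 lower and 3 higher of 25, or 1 higher without replicate 2 at 30 °C. SEC21, a COPI coat subunit, had 456 and 394 CPM at 30 °C and 107 and 85.8 CPM at 42 °C, −2.13 ± 0.09, and SEC7, which activates Arf proteins, fell by 1.92. SEC61, the translocon channel, fell by 1.08. Cell wall genes had 27 lower and 11 higher of 46. CHS2, the chitin synthase of the septum, had 184 and 167 CPM at 30 °C and 37.8 and 35.2 CPM at 42 °C, and FKS1, glucan synthase, fell by 1.55. The wall proteases YPS3 and YPS1 rose by 1.92 ± 0.17 and 1.84 ± 0.10. Genes of the proton pump, ions and membrane domains had 9 higher and 6 lower of 20. NCE103, carbonic anhydrase, had 1369 and 1437 CPM at 30 °C and 61.1 and 86.3 CPM at 42 °C. Its hot libraries were the lowest of the WT libraries by a wide margin, −4.28 ± 0.13, a 19.4-fold fall. PUN1 and FMP45, membrane compartment proteins, rose by 3.45 ± 0.10 and 3.22 ± 0.31, the latter 2.39 without replicate 1 and 3.88 without replicate 2 at 30 °C. PMA1, the proton pump, had 9129.5 and 9823 CPM at 30 °C and 7873 and 8196 CPM at 42 °C, and its change of −0.24 ± 0.07 was not called in a fit of the 4 libraries alone (edgeR, adjusted p = 0.0589).

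Phosphate and iron supply moved in opposite directions. Phosphate genes were lower in 19 of 26 cases and higher in 2, or 1 without replicate 1 at 30 °C or replicate 2 at 42 °C. PHO89, a sodium-phosphate cotransporter, had 299 and 354 CPM at 30 °C and 41.1 and 47.6 CPM at 42 °C, −2.89 ± 0.12, and PHO84, the high-affinity transporter, 3814 and 4760.1 CPM at 30 °C and 1277 and 1426 CPM at 42 °C. PHM8, a phosphatase that releases phosphate from nucleotides, had 25.2 and 42.2 CPM at 30 °C and 399 and 358 CPM at 42 °C and rose by 3.59 ± 0.14. Of 31 iron and siderophore genes 23 rose and 4 fell, with a median of 0.99. TIS11, which marks mRNAs of iron-using proteins for decay, had 4.38 and 2.97 CPM at 30 °C and 37.0 and 41.7 CPM at 42 °C, and its relative CTH1 rose by 2.58 ± 0.10. SIT1, a siderophore transporter, had 17.3 and 15.4 CPM at 30 °C and 71.0 and 77.7 CPM at 42 °C, and the iron reductases FRE3 and FRE4 rose by 2.34 ± 0.27 and 2.58 ± 0.14. Multidrug transporters had 11 higher and 6 lower of 22, among them RSB1, which moves sphingoid bases, at 6.57 and 10.3 CPM at 30 °C and 137 and 129 CPM at 42 °C.

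Growth and division genes fell in the larger part. Of 37 cell cycle genes 22 were lower and 6 higher. CLB2, the main mitotic cyclin, had 58.7 and 44.3 CPM at 30 °C and 9.31 and 6.30 CPM at 42 °C, −2.71 ± 0.17, and the polo kinase CDC5 fell by 2.12. BUB1 and BUB3 of the spindle checkpoint rose by 2.46 ± 0.16 and 1.79 ± 0.13. Histone genes had 7 higher and 2 lower of 11, or 3 higher without genes of shared sequence. HTA1, a histone H2A gene, had 317 and 311 CPM at 30 °C and 724 and 703 CPM at 42 °C, while its copy HTA2 fell by 0.46 and the linker histone HHO1 by 0.52. HTB1, HHT1, HHF1 and HHF2 rose by 0.37, 0.78, 0.74 and 0.62, all but HTB1 with shared sequence. HTB2 and HHT2, at 0.21 and 0.17, lost the call without replicate 2 at 30 °C and without replicate 2 at 42 °C (edgeR, adjusted p = 0.437 and 0.288 for HTB2 and 0.397 and 0.0756 for HHT2), and HHT2 also without replicate 1 at 42 °C (edgeR, adjusted p = 0.0624). HTZ1 and CSE4 were at 0.14 and 0.07 and were not called. Cytoskeleton genes had 20 lower and 4 higher of 38, with SLA2 of endocytic actin at −1.33 ± 0.09.

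Ras, cyclic AMP and TOR genes had 8 higher and 11 lower of 28, 28.6% and 39.3%, near the shares of all genes. GPA2, the G protein of glucose sensing, had 29.5 and 30.3 CPM at 30 °C and 169.7 and 175 CPM at 42 °C, 2.53 ± 0.10, IRA2, which switches Ras off, rose by 1.99 ± 0.14, and the phosphatase PPH21, with 23.0% of shared words, fell by 2.09. MAP kinase pathways had 5 higher and 12 lower of 26, with the phosphatase SDP1 higher by 1.55 ± 0.26 and the kinase PBS2 lower by 1.29. Of 33 autophagy and vacuolar protease genes 17 rose and 7 fell, or 4 fell without replicate 1 at 42 °C. ATG41, needed for autophagosome formation, had 21.2 and 76.8 CPM at 30 °C and 1608 and 1855 CPM at 42 °C. Its hot libraries stood far above controls that were themselves unequal, 5.32 ± 0.50, or 4.49 and 6.34 without replicate 1 and 2 at 30 °C. PRB1, a vacuolar protease, had 569 and 583 CPM at 30 °C and 1504 and 1653 CPM at 42 °C. Of 27 meiosis genes 21 rose and 1 fell, or 0 fell without replicate 1 at 30 °C or replicate 2 at 42 °C, with a median of 1.73. The list took only 0.0099% and 0.0105% of counts in the 30 °C libraries. Genes so weakly read there could pass the low-count filter through heated libraries alone, which favours rises. Of the tested genes of lowest mean level, up to 13.3 CPM, 43.3% were higher and 11.1% lower. SPS100, of the spore wall, had 0.730 and 0.811 CPM at 30 °C and 15.7 and 15.4 CPM at 42 °C, a rise from under 1 CPM. IME1, the master activator of meiosis, rose by 2.50 ± 0.21. IME2, its kinase, rose by 3.21 ± 0.40, or 2.28 and 3.97 without replicate 1 and 2 at 30 °C. Peroxisome genes had 14 higher, or 9 without replicate 1 at 30 °C, and 3 lower of 32, or 1 lower without replicate 2 at 30 °C. PXA2, a transporter of fatty acids, rose by 2.04 ± 0.27 and FOX2, of their oxidation, by 1.40 ± 0.17.

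A few further lists moved in both directions. Transcription factors of nutrition and growth had 19 higher and 20 lower of 50. SIP4, an activator of gluconeogenic genes, had 2.67 and 5.41 CPM at 30 °C and 57.1 and 46.6 CPM at 42 °C, with the groups far apart. Its rise was 3.87 ± 0.20, or 3.27 without replicate 1 at 30 °C. DAL80, a repressor of nitrogen catabolic genes, rose by 3.06 ± 0.24. UPC2, which senses sterols and activates their synthesis genes, rose by 2.69 ± 0.11. DNA damage and repair had 11 higher and 9 lower of 34, with RAD16 of excision repair higher by 2.07 ± 0.12 and the checkpoint kinase RAD53 lower by 1.04. Mitochondrial import had 17 lower and 3 higher of 33. TIM9, a small chaperone of the intermembrane space, fell by 1.16 and the motor subunit TIM44 by 0.95, while CIS1, which clears stalled precursors from the outer membrane, rose by 2.83 ± 0.26. The vacuolar proton pump and its assembly factors had 9 higher and 8 lower of 20, with RAV2 higher by 0.92 ± 0.15 and RAV1 lower by 1.03. Mating genes had 15 lower and 6 higher of 26. FAR1, which arrests the cycle on pheromone, had 118 and 121 CPM at 30 °C and 28.4 and 32.7 CPM at 42 °C, −1.98 ± 0.12. STE3, the receptor of the other mating type, had 0.973 and 0.541 CPM at 30 °C and 8.87 and 7.70 CPM at 42 °C, low in every library yet called higher at 3.29 ± 0.37, or 3.89 without replicate 1 at 30 °C. FUS2, of cell fusion, rose by 3.28 ± 0.42, or 2.61 without that library. STE3, under 1 CPM at 30 °C, could pass the low-count filter through heated libraries alone, which favours rises, and is among the 6 higher.

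Compared directly with 40 °C, the WT cells at 42 °C had 29.8% of genes (1703) higher and 29.4% (1684) lower. Scaled by library size alone the split was 2620 higher and 921 lower, a shift of the median gene by 0.31 in log2 fold change. This test and that against 30 °C share the 42 °C libraries.

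Genes for making ribosomes stood higher at 42 than at 40 °C. All 77 large subunit biogenesis genes and 65 of 66 of the small subunit were higher, with medians of 1.99 and 2.19, and 2.30 and 2.49 by library size alone. CIC1 had 2.78 and 3.98 CPM at 40 °C and 76.3 and 81.4 CPM at 42 °C, 4.50 ± 0.20. NSR1 had 3.34 and 4.18 CPM at 40 °C, and its difference was 4.09 ± 0.46. Of 137 ribosomal proteins 132 stood higher and 1 lower, with a median of 0.95. General stress genes were the reverse, higher in 0 and lower in 44 of 48, with a median of −1.77, or −1.46 by library size alone. HSP12 had 2974 and 2516 CPM at 40 °C, against 174 and 136 CPM at 42 °C, −4.14 ± 0.32. HXT5, CTT1 and PGM2 differed by −3.57 ± 0.12, −3.45 ± 0.30 and −3.28 ± 0.30. In glycolysis 26 of 28 genes were lower than at 40 °C and 0 higher, but 18 and 1 by library size alone. Nuclear oxidative phosphorylation had 32 lower of 37, or 24 by library size alone.

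Chaperones were lower than at 40 °C in part. HSP104 had 29273 and 28180.0 CPM at 40 °C and was lower at 42 °C, −1.16 ± 0.20, as were HSP26 and HSP82, at −1.83 ± 0.48 and −1.04 ± 0.17. BTN2 and HSP42 were at −0.33 ± 0.61 and −0.70 ± 0.44 and were not called (edgeR, adjusted p = 0.677 and 0.217). The direction of the Hsp40 list against 40 °C flipped with the scale, with medians of −0.10 by TMM scaling and 0.20 by library size alone.

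Some genes were higher at 42 than at 30 °C and higher again than at 40 °C. YAP6 had 10.3 and 10.9 CPM at 40 °C, close to its controls, and 91.5 and 89.6 CPM at 42 °C, 3.09 ± 0.14. SIT1 had 12.8 and 15.1 CPM at 40 °C, below its 71.0 and 77.7 CPM at 42 °C by 2.39 ± 0.16. RPN4 and NRG1 stood higher than at 40 °C by 0.63 ± 0.07 and 1.21 ± 0.09. In the other direction NCE103 fell further, from 533 and 463 CPM at 40 °C, −2.78 ± 0.13, and so did ACC1, at −0.77 ± 0.07. GCN4, which was not called against 30 °C, had 153 and 144 CPM at 40 °C and stood at −1.22 ± 0.10 in the direct test.

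**Figure D4:**
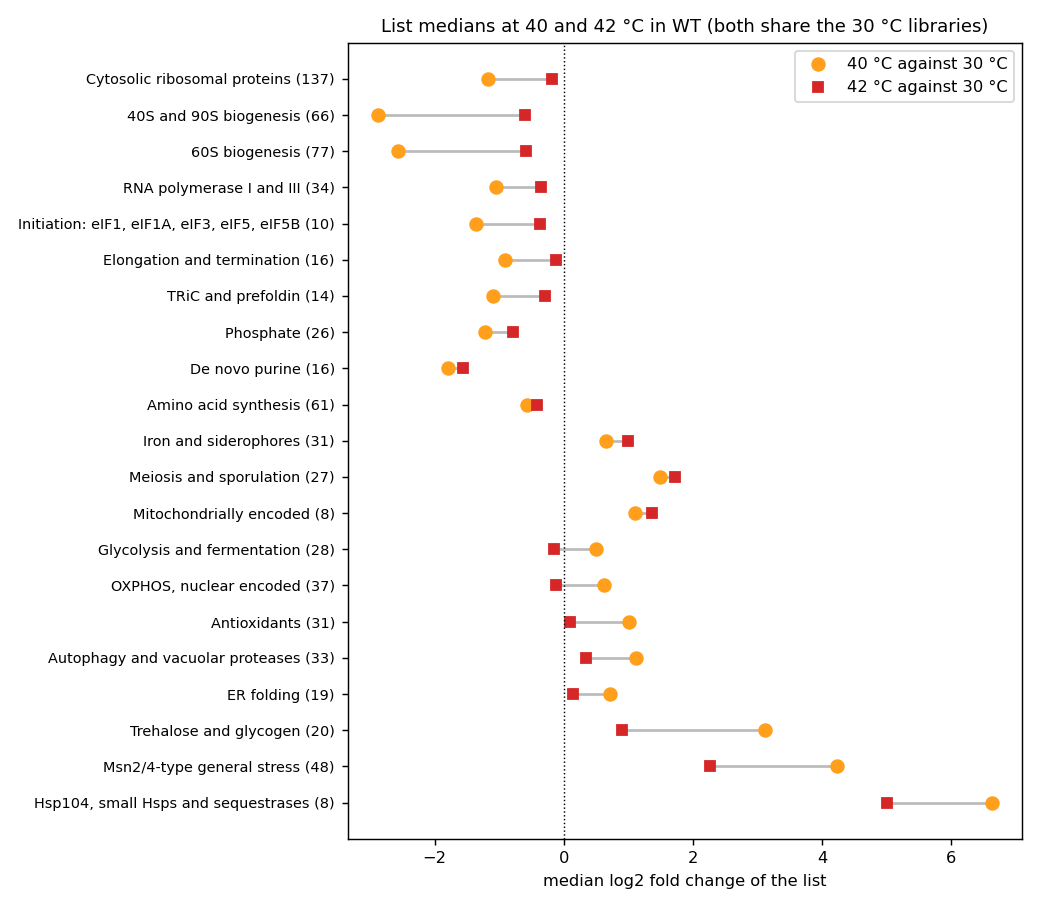
Median log2 fold change of 21 gene lists in WT at 40 °C (circles) and at 42 °C (squares), each against the same 30 °C libraries, with the number of tested genes in brackets. At 40 °C the biogenesis lists lie at −2.88 and −2.57, against −0.60 and −0.59 at 42 °C, the general stress list at 4.23 and 2.27, and the purine list at −1.79 and −1.56.

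These changes can also be given as shares of all counts in a library. The 8 genes listed with Hsp104, small heat shock proteins and sequestrases took 0.0922% and 0.188% of the counts in the 30 °C libraries. They took 3.70% and 3.40% in the 42 °C libraries, and 5.98% and 5.83% in those at 40 °C. HSP104 alone gained 1.332 percentage points of the 42 °C pool, SSA4 1.072 and BTN2 0.806. Ribosomal proteins took 18.7% and 18.2% in the 30 °C pair and 16.4% and 16.7% in the 42 °C pair, while the 40 °C pair had 6.88% and 7.23%. The small subunit biogenesis list took 1.24% and 1.38% at 30 °C and 0.876% and 0.818% at 42 °C. Purine genes took 1.02% and 0.999% at 30 °C and 0.305% and 0.322% at 42 °C. ALD6, the cytosolic acetaldehyde dehydrogenase, lost 0.528 points and CCW12, an abundant cell wall protein, 0.425 points.

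Changes were also uneven over coding length, a property no list used, at 42 °C and also at 40 °C. The 5590 tested genes with an annotated coding sequence were put in 5 bins of nearly equal number. In the bin of the shortest genes, of 78 to 648 bases, 37.9% were higher and 20% lower, with a median of 0.14. In the bin of the longest, of at least 2136 bases, 16% were higher and 53.7% lower, with a median of −0.32. Between them the medians fell in order, 0.08, −0.05 and −0.10. Against the same 30 °C libraries, the cells at 40 °C had medians of 0.16, 0.09, −0.03, −0.05 and −0.36 from the shortest to the longest genes. Long genes that fell include ACC1, with 6702 bases, FAS2 with 5664, XRN1 with 4587 and RPO21 with 5202. Among genes in the highest 2 of 5 bins of mean level the longest genes had 17.2% higher and 59% lower, but the shortest had 32.2% higher and 30.6% lower. The medians there were −0.01, 0.01, −0.09, −0.14 and −0.37, without a rise of the shortest genes and with the order broken between the lowest bins of length. Among genes in no list the medians ran from 0.32 in the shortest to −0.30 in the longest genes. With each library left out in turn the longest genes had medians of −0.30 to −0.39, and −0.25 by library size alone. Between 42 and 40 °C, 33.8% were higher and 26.4% lower in the shortest genes, and 27.1% higher and 29.2% lower in the longest. By level, the lowest bin of genes, up to 13.3 CPM on average, had a median of 0.53, with 43.3% higher and 11.1% lower. The other bins had medians of −0.09 to −0.14. Genes low at 30 °C could pass the low-count filter through heated libraries alone, so the lean of the lowest bin cannot be told apart from the filter. These bins are a description, with no test.

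**Figure D5:**
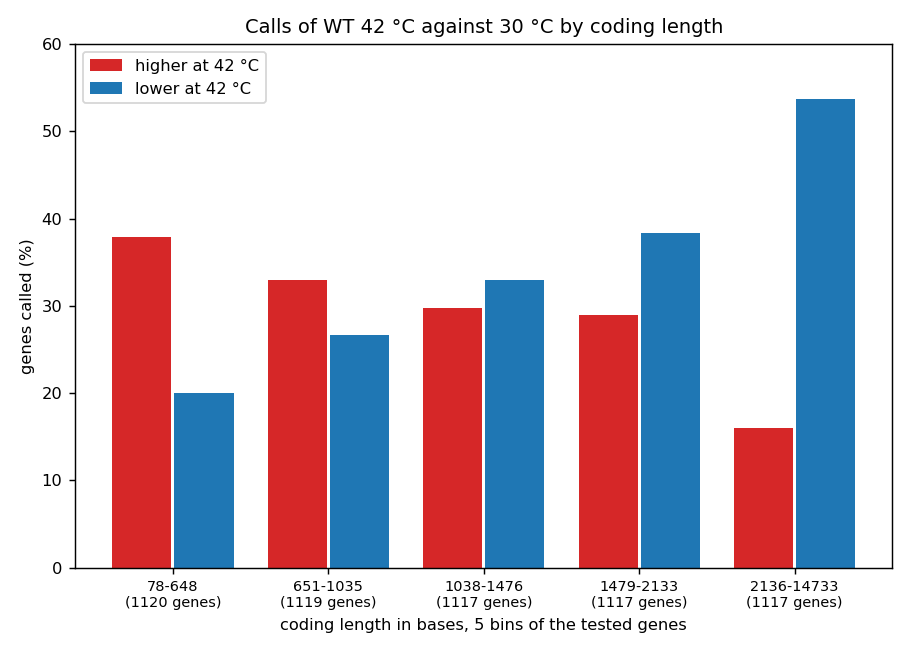
Share of genes called higher (red) and lower (blue) at 42 against 30 °C in WT, in per cent, by bins of coding length in bases. The share called higher falls from 37.9% in the shortest to 16% in the longest genes, and the share called lower rises from 20% to 53.7%.

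The response of WT was also set against that of the IDRm strain at the same temperatures, by a test of the difference between the 2 responses that uses the same WT libraries. The change from 30 to 42 °C differed between the strains in 11.4% of genes with a higher change in IDRm and 16.1% with a lower change. By library size alone the split was 455 higher and 1098 lower, against 650 and 919. Among the general stress genes 26 of 48 had a higher and 0 a lower change in IDRm, and among biogenesis genes of the small and large subunit 58 of 66 and 68 of 77 had a lower change and 0 a higher. Of the 8 genes listed with Hsp104, small heat shock proteins and sequestrases 2 differed, both higher in IDRm. These were HSP31, by 0.69 ± 0.13, and HSP12. In IDRm HSP12 had 25.2 and 42.1 CPM at 30 °C and 1087 and 954 CPM at 42 °C.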

How the data were processed

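Ribosome footprints were measured in 12 libraries of yeast, 2 in each of 6 groups, and deposited by the authors as raw counts per gene, with no scaling. Named in the submitters' processing notes are build R64, STAR 2.5.2b, Bowtie2 2.2.6, cutadapt 1.17 and bcl2fastq 2.17.1.14. What each tool did, the counting rule and the strand setting were not given in the sources used here, so reads of overlapping genes on opposite strands may not have been told apart. No read was realigned.

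Library totals ranged from 3429950 to 7851819 counts, which sets the precision of weakly read genes. Of 6697 genes, 6014 identifiers matched the RefSeq annotation of the same build. The other 683 took 0.04% to 0.112% of a library. The filter filterByExpr, with min.count 10 and min.total.count 15, left 5719. The test was edgeR's robust quasi-likelihood F test (edgeR 4.0.16, limma 3.58.1, R 4.3.3) with TMM scaling. All 12 libraries entered the fit with 1 mean per group, 6 residual and a median of 25.49 prior degrees of freedom. Adjustment was by Benjamini and Hochberg over all genes tested. The standard error is the absolute log2 fold change divided by the square root of F, and is approximate. The test was checked on simulated counts in which few genes changed, as many up as down. Such counts cannot show how the test fares where most genes change or where replicates differ in heat genes.

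Comparisons were 42 with 30 °C and 42 with 40 °C in WT, 40 with 30 °C as values set beside them, and a test of whether the strains differ in their change from 30 to 42 °C. Genes with at least 20% of their 28-base words in another coding sequence, 189 of those tested, count as sharing sequence. The members and the 61 gene lists, written from general knowledge, were chosen with earlier results of these data known. Lists are given by counts and medians with no set test. Genes are named by a rule: the 10 highest and 10 lowest changes at 42 against 30 °C, if called, without overlap of the groups and averaging 20 CPM or more, up to 5 called members per list, the 6 largest gains and losses in share of counts, the 8 highest and 8 lowest against 40 °C, the 5 highest and 5 lowest between strains, a fixed set of heat and translation genes, and any member of a list of at most 12. Not every gene so chosen is printed, and 1 is not reported here. Upstream windows ran from 400 to 101 bases before the start codon, in 5590 genes. Alternatives were other scalings, no filter, the 4 libraries alone, a replicate block, the Wald test of DESeq2 1.42.0, no genes of shared sequence, and each library left out in turn. Splits by coding length and level were added after the data had been seen.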

Additional observations from a re-analysis of the deposited data

Results flagged for a closer look

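The change from 30 to 42 °C differed between the strains in the 10 genes below, the 5 with the highest and the 5 with the lowest tested difference among genes averaging 20 CPM or more. Differences are the change in IDRm minus that in WT on the log2 scale, each from edgeR's test of the difference itself, and their causes were not tested.

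MIG2, the glucose repressor that fell in WT, had 51.6 and 58.2 CPM at 30 °C and 25.8 and 32.4 CPM at 42 °C in IDRm, a difference of 2.54 ± 0.22 (edgeR, adjusted p = 1.71e-10). HXK1, the hexokinase, had 94.1 and 137 CPM at 30 °C and 2926 and 2749.7 CPM at 42 °C in IDRm, so that both strains rose and IDRm rose further, by 2.46 ± 0.22 (edgeR, adjusted p = 4.28e-05). HXT7, a high-affinity hexose transporter, had 10.3 and 4.87 CPM at 30 °C and 9.90 and 8.40 CPM at 42 °C in WT and 12.9 and 13.9 CPM at 30 °C and 81.7 and 80.5 CPM at 42 °C in IDRm, a difference of 2.47 ± 0.28, with 96.0% of its 28-base words in another gene. Within WT the change of HXT7 was 0.13 ± 0.22, or 0.93 without replicate 1 at 30 °C. IGD1, an inhibitor of glycogen debranching, and CIN5, a stress bZIP factor, differed by 2.35 ± 0.31 and 2.17 ± 0.18.

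In the other direction URA6, uridylate kinase, had 104 and 106 CPM at 30 °C and 72.3 and 86.8 CPM at 42 °C in WT and 80.0 and 74.5 CPM at 30 °C and 8.74 and 8.89 CPM at 42 °C in IDRm. The IDRm libraries at 42 °C were far below all others, a difference of −2.72 ± 0.20 (edgeR, adjusted p = 2.06e-12). The fall of URA6 within WT was not called without replicate 1 at 42 °C (edgeR, −0.27, adjusted p = 0.0569). PDE2, the high-affinity cyclic AMP phosphodiesterase, had 51.7 and 51.9 CPM at 30 °C and 62.2 and 57.4 CPM at 42 °C in WT and 63.1 and 52.4 CPM at 30 °C and 11.6 and 9.13 CPM at 42 °C in IDRm, a difference of −2.68 ± 0.19. OST1, of the oligosaccharyl transferase, differed by −2.45 ± 0.16, ERG2, a sterol isomerase, by −2.27 ± 0.14 and VIP1, an inositol pyrophosphate kinase, by −2.27 ± 0.15.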

How the results depend on the processing

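For 42 against 30 °C in WT, the counts of called genes stayed within 1.5 times under all alternatives. With each library left out in turn they ran from 1459 to 1613 higher and 1657 to 1918 lower, and at 2-fold or more from 789 to 871 and 494 to 510. Against 40 °C they ran from 1492 to 1748 higher and 1480 to 1733 lower, and between the strains from 464 to 738 and 774 to 935. By library size alone 2620 were higher and 921 lower against 40 °C, 74% higher among called genes instead of 50.3%. The DESeq2 Wald test called 316 higher between the strains instead of 650. There the share higher among called genes was 41.4%, but 29.3% by library size alone, 32.2% with DESeq2 size factors and 30.2% with the Wald test. The cause was not tested.

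With a replicate block, 1739 genes were called higher and 1941 lower at 42 against 30 °C. Same-numbered libraries deviated together with correlations of −0.012 to 0.022, so the numbers were not shown to pair the samples. Of 340 named genes called, 323 were called in every alternative that tested them, 17 were lost in at least 1 and 0 changed direction. The medians of the proteasome, DNA repair, hexose, nutrient factor, splicing and citric acid cycle lists change sign by library size alone, which limits what their direction says. Depth limits weakly read genes, whose calls need large changes.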
